A study of Mus musculus with 9 samples.

Results

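The cytosolic ribosomal protein genes encode the proteins of the large (Rpl) and small (Rps) subunits of the ribosome outside mitochondria. Members were peaks of the H3K4me3 and PLAGL1 lists at most 3 kb from the transcription start (TSS) of a protein-coding gene whose symbol follows the Rpl or Rps naming pattern, and KLF4 sites that overlapped such a peak. This took 67 of 16251 H3K4me3 peaks, 6 of 3463 PLAGL1 peaks and 49 of 21130 KLF4 sites, at 67 of the 84 genes with such a symbol in the reference. The H3K4me3 peaks were 1 to a gene, and the 6 genes with a PLAGL1 peak were among the same 67.

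The data came from CUT&Tag, in which an antibody directs a transposase to chromatin, on periosteal stem and progenitor cells of the mandibular angle of mice aged 8 weeks, after 3 days of osteogenic induction with dexamethasone (1e-07 M), beta-glycerophosphate (5 mM) and ascorbic acid (50 µg/ml). H3K4me3 (1 library) was profiled in Plagl1fl/fl cells with no virus named. PLAGL1-HA and IgG (1 library each) came from Plagl1fl/fl cells that overexpressed HA-tagged Plagl1 from a lentivirus at a multiplicity of 10. KLF4-FLAG was profiled with FLAG-tagged lentiviral Klf4 at the same multiplicity, in Plagl1fl/fl control cells (3 libraries) and in Ctsk-iCre;Plagl1fl/fl cells (3 libraries), in which Cre follows the cathepsin K gene. All groups thus carried the floxed Plagl1 alleles, and both factors were measured as overexpressed, tagged proteins. The treatment labels of the 6 KLF4 libraries name vectors from Klf4 to Klf9 whereas every title reads KLF4, and groups were taken from the titles. Loss of Plagl1 in the Cre-carrying cells cannot be checked in peak lists. Nothing in the labels says whether libraries of a group came from separate animals, so the p-values may measure technical spread alone.

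Ribosomal proteins are needed in nearly equal amounts, and their genes are among the most actively transcribed in growing cells, bone-forming cells included. Their promoters are known for a start site inside a tract of C and T, which gives the mRNA a 5′ terminal oligopyrimidine tract read by the mTOR pathway, and for motifs of ETS factors, SP factors and YY1 close by. H3K4me3 marks the start of active genes. KLF4, of the Krüppel-like family, binds GC-rich and CACCC sequences, and PLAGL1 is an imprinted zinc-finger factor that binds GC-rich DNA.

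As a check of the cell label, 12 of 13 periosteal and skeletal progenitor markers carried an H3K4me3 peak (scores 65 to 898), with Lepr as the exception, and 4 of 5 osteoblast markers did (scores 52 to 741), with Bglap as the exception. All 6 haematopoietic and macrophage markers also had a peak, with scores from 35 to 276, which overlap the lower part of both ranges. Among endothelial markers only Kdr (179) of 4 was marked, and none of 3 Schwann cell and none of 3 skeletal muscle markers was. The depth of the libraries is unknown, since the tables hold no values per library. How the authors handled reads that match several places is not given in the sources used, which matters for genes with as many processed copies as these. The reference lists 303 pseudogenes of Rpl and Rps genes with the suffix -ps. No H3K4me3 peak was named for a pseudogene with that suffix, and 1 PLAGL1 peak was, for Rps6-ps4.

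H3K4me3 peaks at ribosomal protein genes were strong, centred just inside the gene and, by the authors' annotation, all within 976 bp of the TSS. A peak was present at 67 of 84 genes (79.8%), against 51.3% of the protein-coding genes of the reference. The median peak score, a whole number the authors gave each peak, was 1254 (quartiles 984 and 1385.5) at the 67 genes and 852 (quartiles 460.5 and 1179) over all 11443 marked protein-coding genes. The score of 57 of the 67 genes lay above that overall median, 37 lay above its upper quartile and 1 lay below its lower quartile. These are values of 1 library, so they carry no error and no test.

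Both subunits were covered. Large subunit genes had a peak at 41 of 52 genes with a median score of 1271 and a range from 414 to 1790. Small subunit genes had one at 26 of 32 with a median of 1227.5 and a range from 666 to 1826. Peaks had a median width of 1606 bp, against 1322 bp over all marked genes and 1772 bp at the translation factor genes compared below. Their centres lay downstream of the TSS at 62 of 67 genes, by a median of 354 bp, and over all marked genes 86.5% lay downstream, with a median of 289 bp. The peak spanned the TSS at all 67 genes and at 91.9% of all marked genes.

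Among the 67 member peaks the highest score belonged to Rps27l (1826, chr9:66852896-66854270, mm39), a p53-induced paralog of Rps27, which ranked 161st of the 11443 marked genes. Peaks that bore other names, in Rps16 (1895) and beside Rps25 (2040), scored higher and are outside this ranking. Rpl5 (1790), whose product binds 5S ribosomal RNA and MDM2, Rps14 (1744) of the small subunit and Rpl38 (1714), known for selective translation of Hox mRNAs in mouse embryos, came next. Rps23 (1584), the paralog Rpl7l1 (1576), Rpl22 (1565), the stalk protein gene Rplp2 (1542), Rpl15 (1522) and Rps6 (1483), whose product is the S6 kinase substrate, completed the 10 highest. All 10 were in the upper 10% of marked genes. Of the 3 marked paralogs the third, Rpl22l1, had 1041.

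The lowest scores were at Rpl10 (414, chrX:73313646-73315867), Rpl13a (494), Rpl39 (557), Rps9 (666) and Rps12 (758). The product of Rpl13a is part of an interferon-responsive translational silencer in human cells. Rpl10, needed for late maturation of the large subunit, and Rpl39, at the exit tunnel, are X-linked. The other X-linked members also scored low, with 767 at Rpl36a and 840 at Rps4x. All 4 X-linked genes were below 1000, as were 13 of 63 autosomal ones, and the medians were 662 and 1271. Over all marked genes the order was the same, with a median of 501 at 383 X-linked and 870 at 11060 autosomal genes. The number of X chromosomes in the cells is not given in the labels, and its part in the score was not tested.

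**Figure D1:**
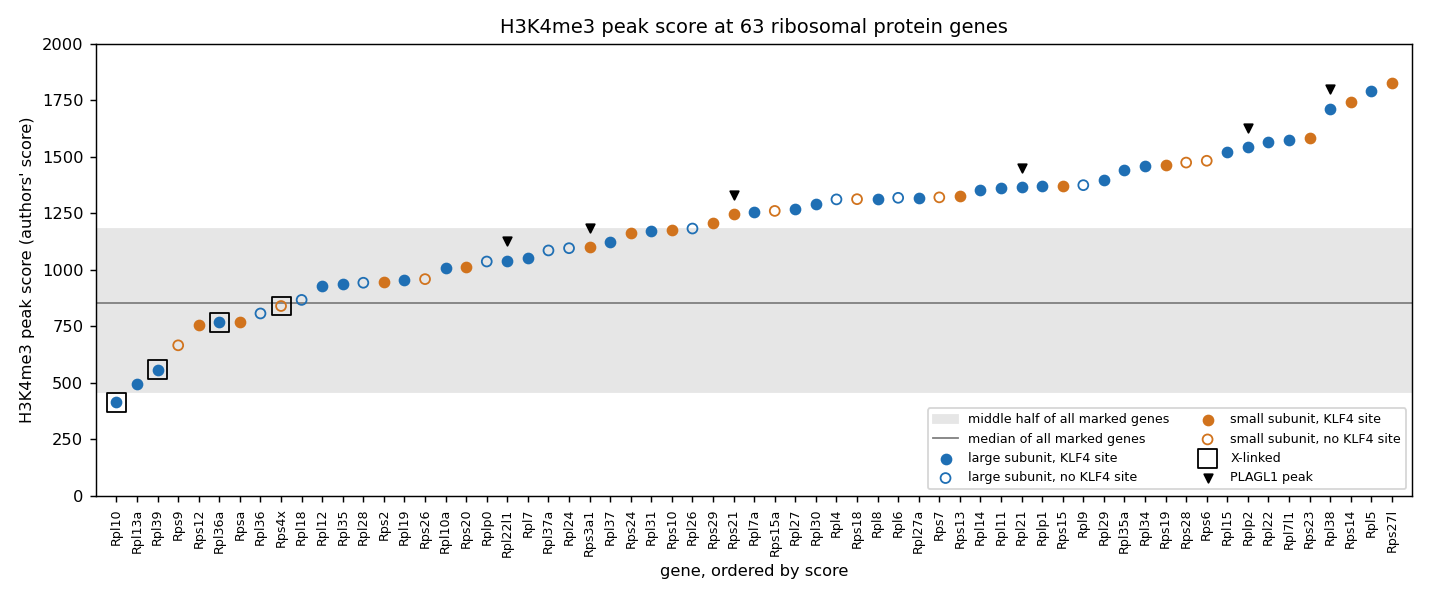
H3K4me3 peak score (authors' score, y axis) of 63 of the marked ribosomal protein genes, ordered by score (x axis), with filled points for genes with a KLF4 site on the peak, open points for those without, squares for X-linked genes, triangles for a PLAGL1 peak, and the median (852) and quartile range (460.5 to 1179) of all marked genes as line and band. Most members lie above the line, and the 4 X-linked ones lie below it.

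A list of 10 genes whose loss of 1 copy causes Diamond-Blackfan anaemia in humans, which does not hold every such gene, was marked throughout. The scores ran from 959 at Rps26 to 1790 at Rpl5, with 1463 at Rps19, the gene most often affected, 1442 at Rpl35a, 1363 at Rpl11, 1321 at Rps7, 1208 at Rps29, 1176 at Rps10 and 1164 at Rps24 among them. Their median of 1264.5 was close to the 1254 of all members.

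By name, 17 of the 84 genes had no H3K4me3 peak near the TSS, and for the 13 among them that are standard ribosomal proteins the peak bore another name. Of these, 9 host a small nucleolar RNA in an intron, and the peak was annotated to that RNA. They included Rpl3 (peak named Snord43, score 806), Rpl13 (Snord68, 1496), Rpl17 (Snord58b, 1442), Rpl23 (Snora21, 982), Rpl23a (Snord42b, 635), Rpl32 (Snora7a, 981), Rps3 (Snord15a, 1319) and Rps16 (AF357399, 1895). A KLF4 site lay on 8 of these 9 peaks and a PLAGL1 peak on none. Of all marked protein-coding genes, 68.5% had a KLF4 site on the peak and 10.2% a PLAGL1 peak within 3 kb of the TSS. Peaks beside the remaining standard genes were annotated to the neighbours Zc3h10 (993) for Rpl41, Trappc4 (2040) for Rps25 and Clhc1 (1383) for Rps27a. The peak at chr3:90120032-90121527 was annotated to the retrogene Rps27rt (894), for which the deposited alias list includes Rps27. These pairings rest on gene neighbours in the reference, which is of another build, and the 13 genes were left out of all counts of members. The 4 unmarked paralogs were Rpl3l, Rpl10l, Rpl32l and Rpl39l, which are known for expression in muscle or testis in the case of Rpl3l, Rpl10l and Rpl39l. Ribosomal proteins whose symbols do not follow the pattern were marked under their own names at Fau (867) and Rack1 (1354), whereas the peak beside Rpl36al bore the name Mgat2 (1361).

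Promoter sequence was available for 53 of the 67 marked genes, as 250 bases before and 50 after the first start that RefSeq lists (build GRCm38.p6, while the peaks are on mm39). Both strands were searched for the ETS motif CCGGAAG, the GC box GGGCGG that SP and KLF factors bind, the CACCC box CCACCC, the YY1 motif AAGATGG, the TATA motif TATAAA and the PLAGL1 core GGGGCCCC. In addition, a run of at least 7 consecutive C or T was sought on the gene's strand from 15 bases before to 20 after the start. Motifs of different names were counted separately where they overlapped.

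The pyrimidine run lay in this window around the start at 29 of 53 ribosomal protein genes (54.7%). It did so at 20.4% of 9007 marked protein-coding genes with a promoter entry. The run did not have to include the start itself. At Rpl31 it reached from -15 to -6 and at Rplp0 from 11 to 17, so the count is not one of starts inside a run. The ETS motif was in 22 promoters (41.5%, against 17.6%) and the YY1 motif in 7 (13.2%, against 6.97%). GC boxes were in 32 (60.4%, against 66.9%), CACCC boxes in 13 (24.5%, against 37.7%) and TATA motifs in 6 (11.3%, against 6.77%). The PLAGL1 core was in none, against 1.55%. The median GC content was 59% and 61.3% over all. These are descriptions of letters in a window, with no test.

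Printed here are the promoters of 5 of the 6 genes with a PLAGL1 peak, of Rps19 with the strongest KLF4 site, of Rpl36a with the largest KLF4 fold change, and of Rps6, the highest-scored gene without a KLF4 site. Capitals mark matches to the ETS motif, the GC box and the CACCC box on either strand and, where it reached 7 bases, the longest C and T run at the start.
Rpl22l1 promoter (chr3:28805258-28805557, + strand): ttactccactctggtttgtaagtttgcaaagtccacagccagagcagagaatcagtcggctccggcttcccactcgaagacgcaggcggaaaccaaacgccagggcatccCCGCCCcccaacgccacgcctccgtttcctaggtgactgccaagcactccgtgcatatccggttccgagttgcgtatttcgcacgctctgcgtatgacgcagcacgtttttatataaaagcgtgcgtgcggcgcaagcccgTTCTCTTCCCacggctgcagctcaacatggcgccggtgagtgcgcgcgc
Rps21 promoter (chr2:180257129-180257428, + strand): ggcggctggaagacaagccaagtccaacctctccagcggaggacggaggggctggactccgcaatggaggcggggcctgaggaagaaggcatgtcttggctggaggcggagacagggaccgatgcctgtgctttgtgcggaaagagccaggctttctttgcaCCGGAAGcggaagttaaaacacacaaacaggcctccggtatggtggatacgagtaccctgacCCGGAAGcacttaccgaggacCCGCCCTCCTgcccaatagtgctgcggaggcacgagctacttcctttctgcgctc
Rpl38 promoter (chr11:114668330-114668629, + strand): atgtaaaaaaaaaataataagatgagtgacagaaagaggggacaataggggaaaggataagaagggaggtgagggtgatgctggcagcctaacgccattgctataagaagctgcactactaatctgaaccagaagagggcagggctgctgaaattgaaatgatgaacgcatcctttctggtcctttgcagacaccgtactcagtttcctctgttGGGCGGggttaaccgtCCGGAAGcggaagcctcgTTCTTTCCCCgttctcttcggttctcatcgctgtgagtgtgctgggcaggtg
Rps3a1 promoter (chr3:86142619-86142918, - strand): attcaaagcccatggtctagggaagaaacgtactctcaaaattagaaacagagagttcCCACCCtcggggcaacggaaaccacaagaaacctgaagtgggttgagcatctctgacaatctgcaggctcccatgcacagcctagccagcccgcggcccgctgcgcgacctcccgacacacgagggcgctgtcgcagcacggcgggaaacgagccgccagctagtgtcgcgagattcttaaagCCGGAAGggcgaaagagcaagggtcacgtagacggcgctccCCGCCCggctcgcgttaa
Rplp2 promoter (chr7:141447401-141447700, + strand): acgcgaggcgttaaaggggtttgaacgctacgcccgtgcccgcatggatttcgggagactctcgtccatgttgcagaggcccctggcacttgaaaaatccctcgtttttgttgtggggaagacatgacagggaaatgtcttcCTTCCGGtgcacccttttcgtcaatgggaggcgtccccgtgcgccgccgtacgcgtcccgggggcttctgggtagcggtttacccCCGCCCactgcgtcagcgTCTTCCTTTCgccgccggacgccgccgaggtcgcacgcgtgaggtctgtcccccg
Rps19 promoter (chr7:24884342-24884641, + strand): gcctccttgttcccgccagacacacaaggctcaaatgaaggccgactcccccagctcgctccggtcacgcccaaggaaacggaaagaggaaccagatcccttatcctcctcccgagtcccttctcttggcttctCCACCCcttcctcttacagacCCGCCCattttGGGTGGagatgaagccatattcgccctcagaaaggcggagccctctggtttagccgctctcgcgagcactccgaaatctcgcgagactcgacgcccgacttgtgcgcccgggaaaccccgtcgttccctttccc
Rpl36a promoter (chrX:134585404-134585703, + strand): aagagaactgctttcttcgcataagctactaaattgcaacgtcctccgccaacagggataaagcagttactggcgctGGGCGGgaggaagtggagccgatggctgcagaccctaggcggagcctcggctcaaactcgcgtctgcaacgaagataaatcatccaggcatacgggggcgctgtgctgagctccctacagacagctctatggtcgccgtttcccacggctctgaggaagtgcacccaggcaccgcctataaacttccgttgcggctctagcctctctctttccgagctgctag
Rps6 promoter (chr4:86857318-86857617, - strand): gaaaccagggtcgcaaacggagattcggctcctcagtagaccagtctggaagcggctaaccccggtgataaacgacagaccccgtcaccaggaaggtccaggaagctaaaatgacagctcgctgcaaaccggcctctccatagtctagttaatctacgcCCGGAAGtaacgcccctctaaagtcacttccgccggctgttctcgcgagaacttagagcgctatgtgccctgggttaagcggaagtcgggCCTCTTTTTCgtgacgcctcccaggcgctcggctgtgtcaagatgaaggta

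Rpl22l1, Rplp2 and Rpl38 have a pyrimidine run at the start and a GC box upstream. Rps6 has the run and an ETS motif but no GC box. Rps19 has no ETS motif and no run of 7 in the window at the start, but 2 CACCC boxes around a GC box. The printed Rps19, Rps21 and Rpl36a sequences hold longer C and T runs past that window. The count of runs thus depends on the start that is used. Rps21 has 2 ETS motifs, and its GC box overlaps the pyrimidine run.

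KLF4 sites were found on the H3K4me3 peak of 48 of the 67 marked genes (71.6%), against 68.5% of all marked protein-coding genes. Rpl10a had 2 sites and the other genes 1. The share was 30 of 41 for the large and 18 of 26 for the small subunit. The 19 genes without a KLF4 site included Rpl4, Rpl6, Rpl9, Rpl18, Rpl24, Rpl26, Rpl28, Rpl36, Rpl37a, Rplp0, Rps4x, Rps6, Rps7, Rps9, Rps15a, Rps18, Rps26 and Rps28. Their median H3K4me3 score was 1183 (666 to 1483), against 1262.5 at the 48 with a site. Over all marked genes the corresponding medians were further apart, at 450.5 and 983.

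The GC box was more frequent where KLF4 was present. It was in 28 of the 36 promoters with a KLF4 site (77.8%) and in 4 of the 17 without one (23.5%). Over all marked genes these shares were 73.1% of 6262 and 52.8% of 2745. The CACCC box was in 10 of 36 and 3 of 17, and the ETS motif was in 16 of 36 and 6 of 17. The pyrimidine run was present in 20 of 36 (55.6%) and 9 of 17 (52.9%). Base composition moved along, with a median GC content of 60.2% with a KLF4 site and 56% without, and its part in the difference was not tested. This split was looked at after the lists of genes with and without KLF4 were known, and it is a description.

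**Figure D2:**
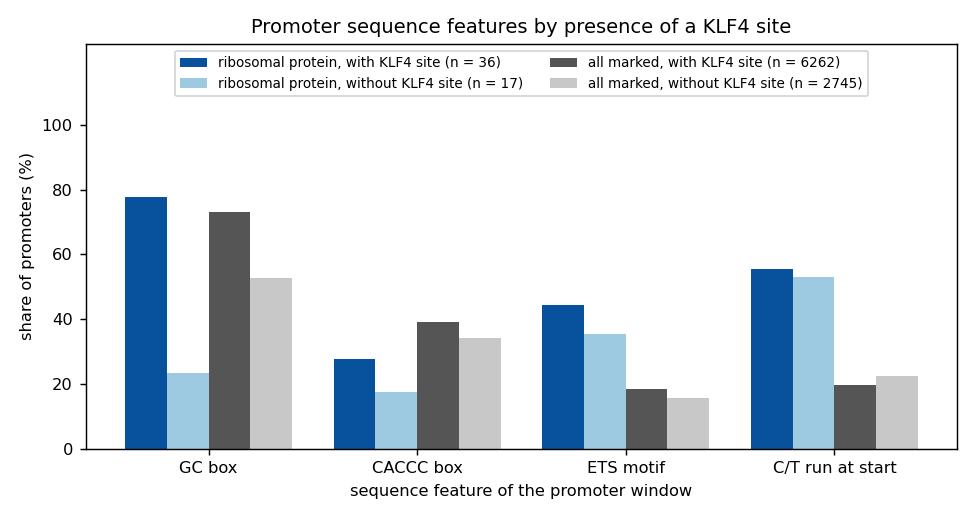
Share of promoters (%, y axis) with a GC box, CACCC box, ETS motif or C/T run in the window around the start (x axis), for ribosomal protein genes with (n = 36) and without (n = 17) a KLF4 site and for all marked genes with (n = 6262) and without (n = 2745) one. Among ribosomal protein genes the GC box shares are 77.8% with and 23.5% without KLF4, and the C/T run shares 55.6% and 52.9%.

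KLF4 signal at these genes was close to the median of all sites. Per kb of site, the median was 5.93 log2 CPM at the 49 sites of the authors' deposited table, against 5.91 over all its 21130 sites and 6.05 over the 8377 sites on the promoter peaks of marked genes. This level is the mean log2 CPM over all 6 libraries less the log2 of the site width in kb, and the table gives no value per library.

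Rps19 stood apart. Its site (chr7:24583345-24584375, 1031 bp) had 7.80 log2 CPM per kb in the authors' deposited table, rank 244 of all sites, while the next member, Rpl27, had 6.92 and rank 1974. Rps21, Rpl7, Rpl31 and Rpl38 followed Rps19 by mean log2 CPM without the correction for width, and had 6.33, 5.79, 6.44 and 6.35 log2 CPM per kb in the authors' deposited table. The Rpl7 site was the widest at 1578 bp. The 5 lowest by mean log2 CPM were the sites of Rpl5, Rpl34, Rpl7l1, Rpl22l1 and Rpl39, with 5.50, 5.44, 5.26, 5.52 and 5.93 log2 CPM per kb in the authors' deposited table. Rpl5 thus joined the second highest H3K4me3 score of the 67 peaks with the narrowest of the 49 KLF4 sites (282 bp). Across the 48 genes the Spearman correlation of the H3K4me3 score with KLF4 log2 CPM per kb was -0.09, a description across genes of the same libraries.

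KLF4 sites lay around the start site, with centres in the median upstream of the centre of the mark. The sites were taken for overlap with member peaks, and every H3K4me3 peak among these spans the TSS. Nearness to the TSS was therefore partly set by that choice, and no positions at other genes are given for comparison. For the 37 sites at genes whose strand the promoter table gives, the centre of the site had a median position of -53 bp from the TSS, negative being upstream (quartiles -178 and 62 bp). The site covered the TSS in 28 of 37 cases, and its centre was within 500 bp in 35. At the same 36 genes the H3K4me3 peak was centred a median of 304.5 bp downstream. The exceptions beyond 500 bp were Rpl15 and the second site of Rpl10a, both downstream, with centres at 670.5 and 664 bp. The Rps19 site reached from -993 to 37 bp.

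**Figure D3:**
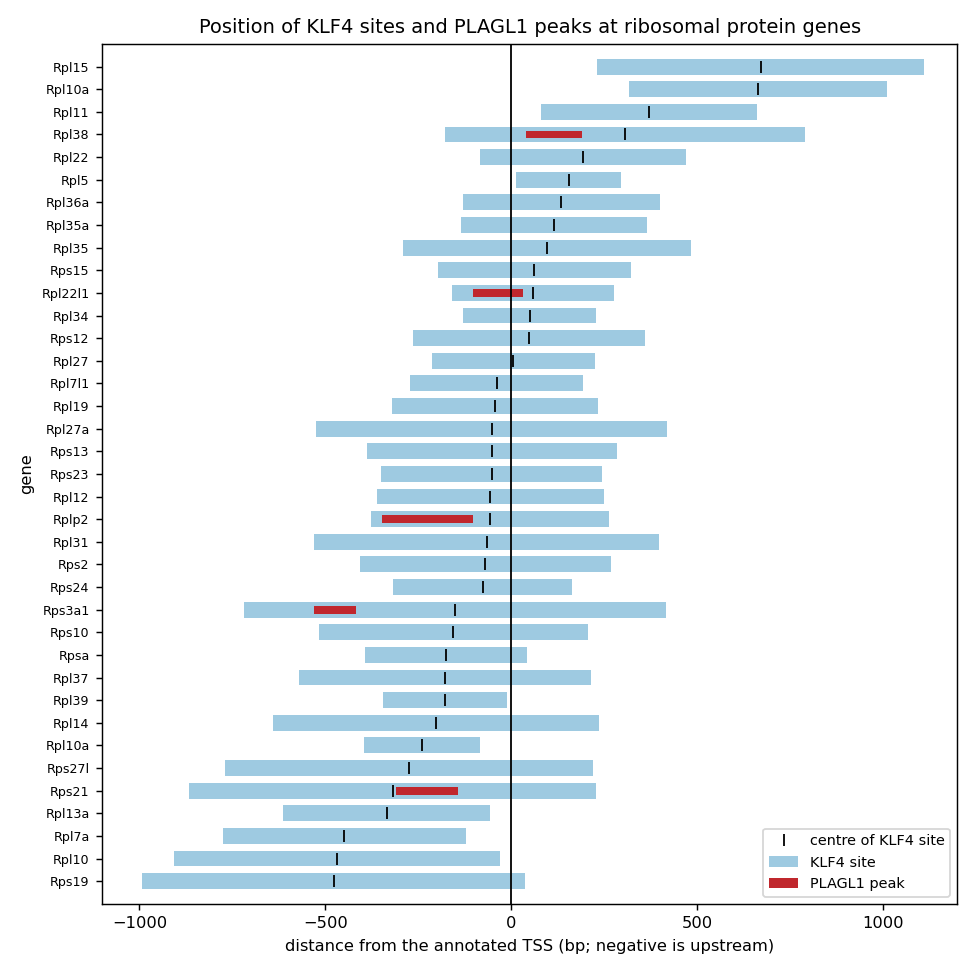
Extent of the 37 KLF4 sites (bars, with a tick at the centre) and of PLAGL1 peaks (narrow bars) relative to the annotated TSS in bp (x axis, negative upstream) at each ribosomal protein gene (y axis). Of the sites, 28 cover the TSS, and each PLAGL1 peak shown lies within a KLF4 site.

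PLAGL1 peaks were found at 6 of the 67 marked genes (8.96%), against 10.2% of all marked protein-coding genes. The share of ribosomal protein genes was therefore near the background. The genes were Rpl22l1, Rps21, Rpl38, Rps3a1, Rplp2 and Rpl21. All 6 peaks lay inside a KLF4 site, as did 76.3% of the 1332 PLAGL1 peaks within 3 kb of the TSS of marked protein-coding genes. An H3K4me3 peak was overlapped by 5 of the 6, and by 88.9% of the 1332.

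The highest PLAGL1 score was 61 at Rpl22l1 (chr3:28859555-28859687, -36 bp from the TSS), a paralog of Rpl22 that can take its place in the ribosome. It ranked 640th of the 3463 PLAGL1 peaks. Rps21, of the small subunit, had 46 (chr2:179898863-179899029, -226 bp). Rpl38 had 40 (chr11:114559447-114559596, 115 bp), and Rps3a1, also of the small subunit, had 40 (chr3:86050392-86050506, -474 bp). The Rps3a1 peak missed the edge of the H3K4me3 peak by 301 bp. Rplp2, of the acidic stalk that recruits elongation factors, had 35 (chr7:141027217-141027462, -225 bp). Rpl21, of the large subunit, had 24 (chr5:146769819-146769945, 182 bp). The median of the 6 scores was 40, the same as over all PLAGL1 peaks. None of the 10 listed Diamond-Blackfan genes had a PLAGL1 peak, where 10.2% of all marked protein-coding genes had one.

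The genes with PLAGL1 had a median H3K4me3 score of 1306.5, against 1254 at the other 61. Their KLF4 sites had a median of 6.34 log2 CPM per kb in the authors' deposited table, and the other 43 sites 5.89. PLAGL1 was 1 library against 1 IgG library, so neither difference has a test. The members farthest inside it were Rps9 at 976 bp for H3K4me3 (score 666) and Rps3a1 at 474 bp for PLAGL1, and the nearest peaks outside were at Rps28, 6780 bp away with an H3K4me3 score of 575, and at Rpl11, 11076 bp away with a PLAGL1 score of 50.

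KLF4 at ribosomal protein promoters was compared between control and Plagl1-deficient cells. No site was called. In the edgeR comparison of the authors' deposited table, 0 of the 49 sites had an adjusted p under 0.05, where 0.0473% of all sites did, and the smallest adjusted p among the 49 was 0.63. That share is 10 of 21130 sites. With sex chromosome ends and ribosomal RNA copies left out of the adjustment, 1 site in the table was called. At an unadjusted p under 0.05 there were 4 sites (8.16%), against 6.46% of all sites and 4.44% of the sites on marked promoters. All 4 had a positive log2 fold change and none a negative one, for which the shares over all sites were 3.4% and 3.05%. Which group stands in the numerator is not stated there, and the sign therefore names no group as higher.

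The 4 were the sites of Rpl36a, Rpl22l1, Rpl19 and Rpl13a. In the authors' deposited table Rpl36a (chrX:133486273-133486802) had a log2 fold change of 0.63 (approximate 95% interval 0.17 to 1.09, adjusted p = 0.63, edgeR). Rpl22l1 (chr3:28859498-28859933) had 0.59 (0.07 to 1.11, adjusted p = 0.72, edgeR) in the authors' deposited table. Rpl19, of the large subunit, had 0.37 (0.01 to 0.73) and Rpl13a 0.27 (0.01 to 0.53) in the authors' deposited table, both with adjusted p = 0.76 by edgeR. Rpl22l1 is thus the member with the highest PLAGL1 score and the second largest fold change, on a site of low signal (mean 4.33 log2 CPM).

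At the other genes with a PLAGL1 peak the values lay on both sides of 0. In the authors' deposited table Rplp2 had 0.18 (-0.11 to 0.47), Rps3a1 0.09 (-0.20 to 0.38), Rps21 -0.04 (-0.26 to 0.19), Rpl21 -0.04 (-0.29 to 0.22) and Rpl38 -0.15 (-0.39 to 0.09). The median was 0.03 over the 6 sites with PLAGL1 and 0.05 over the 43 without. The strong Rps19 site had 0.09 (-0.07 to 0.24) in the authors' deposited table. The most negative value was -0.24 (-0.59 to 0.11) at Rpl30.

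Over all 49 sites of the authors' deposited table the median log2 fold change was 0.05, with 27 positive and 22 negative, and over all 21130 sites it was 0.00128, with 50.3% positive. The SD was 0.21 at the 49 sites and 0.23 over all. Over the 8377 sites on marked promoters the median was -0.00989, with 47.1% positive, and the SD was smaller, at 0.18. These differences were not tested. The approximate interval lay within 0.5 of 0 at 29 of the 49 sites and within 1 of 0 at 47, so for 20 sites a change of 0.5 was within the error. The 2 exceptions at 1 were Rpl36a and Rpl22l1. Weak sites spread more. Among the 24 weaker sites by mean log2 CPM the fold changes had an SD of 0.26 and a median standard error of 0.23, and among the 25 stronger ones these were 0.14 and 0.14.

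**Figure D4:**
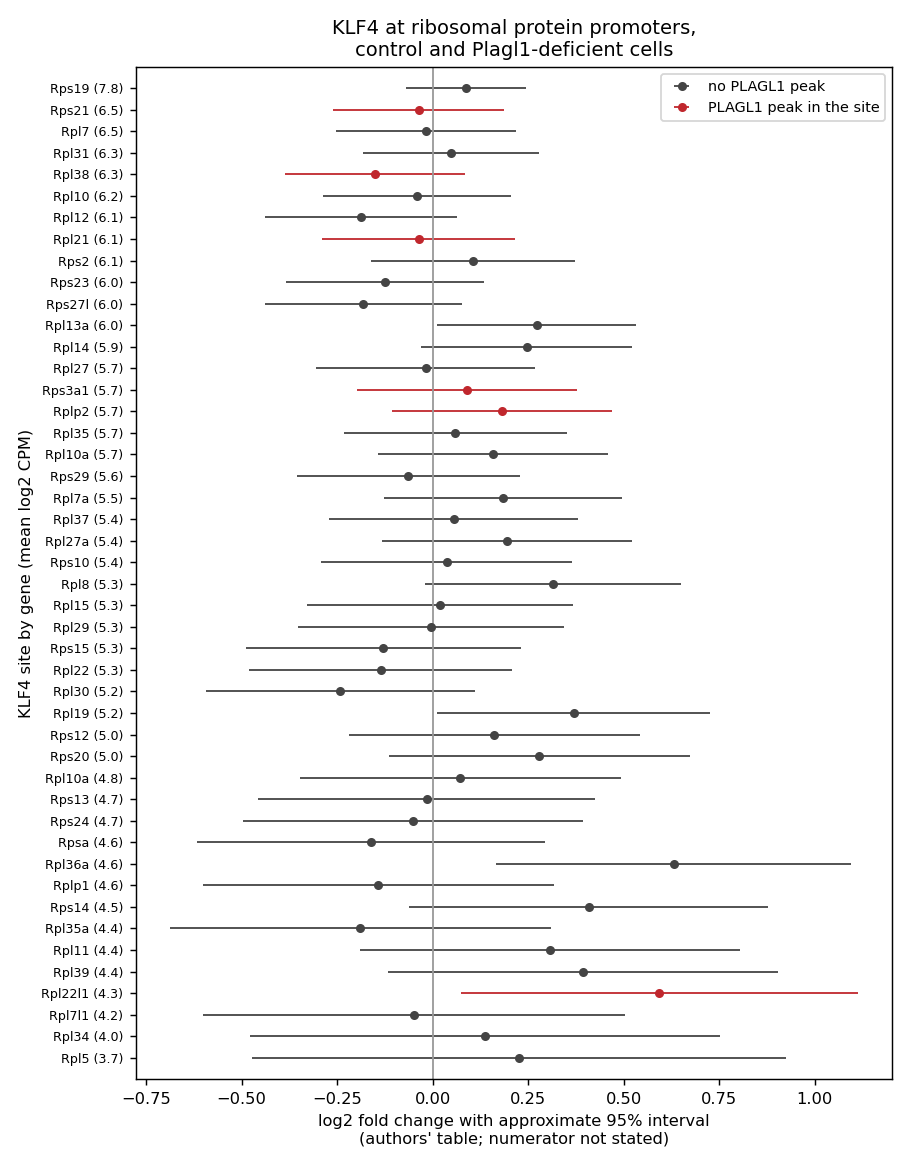
Log2 fold change of KLF4 between control and Plagl1-deficient cells (x axis, points) with its approximate 95% interval (bars) from the authors' deposited table, for 46 of the 49 sites at ribosomal protein genes, ordered by mean log2 CPM (y axis, value in brackets), red where the site holds a PLAGL1 peak. The interval excludes 0 at Rpl36a, Rpl22l1, Rpl19 and Rpl13a, none of which was called after adjustment.

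Other genes of protein synthesis were set beside them, as counts without a test. Marked genes were counted by the name of the peak. The 79.8% of cytosolic ribosomal protein genes thus leaves out the 13 standard genes whose peak bore another name. Of 78 mitochondrial ribosomal protein genes 66 were marked (84.6%), with a median H3K4me3 score of 1180. KLF4 sites were on 42 of those peaks (63.6%) and PLAGL1 peaks at 2 (3.03%). Of 36 translation factor genes 33 were marked (91.7%), with a median of 1149, and both factors were more frequent there, with KLF4 at 30 (90.9%) and PLAGL1 at 8 (24.2%). Ribosome biogenesis genes, which process and assemble ribosomal RNA, had 30 of 39 marked (76.9%), with a median of 1033, KLF4 at 22 (73.3%) and PLAGL1 at 1 (3.33%). The cytosolic ribosomal proteins had the highest median score of these lists. In the authors' deposited table no KLF4 site of any of these lists had an adjusted p under 0.05. At an unadjusted p under 0.05 there were 2 of 43 (4.65%), 1 of 33 (3.03%) and 1 of 22 sites (4.55%). The shares were 6.46% over all sites and 4.44% over the sites on marked promoters.

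**Figure D5:**
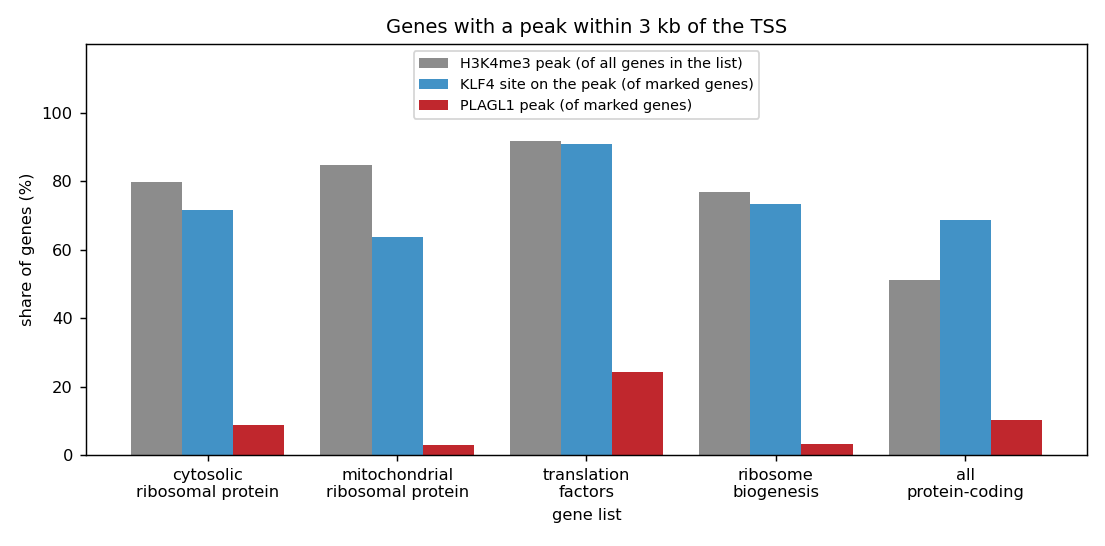
Share of genes (%, y axis) with an H3K4me3 peak within 3 kb of the TSS, and of marked genes with a KLF4 site on that peak or a PLAGL1 peak, for lists of protein synthesis genes and all protein-coding genes (x axis). Counted by the gene name of the peak, cytosolic ribosomal protein genes are marked more often than all genes (79.8% and 51.3%), with KLF4 (71.6% and 68.5%) and PLAGL1 (8.96% and 10.2%) near the overall shares.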

How the data were processed

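CUT&Tag libraries of 5 groups were grouped by sample title. Per the submitters' processing notes, which state no roles, the authors' tools included MACS3 3.0.2 and Bowtie2 2.5.4 (build mm39), HOMER 4.11.1, and edgeR 4.2.0 beside DiffBind 3.16.0. The peak score, distance to the TSS and gene name of each peak are the authors' own, per the file headers. The authors' deposited KLF4 table holds, per consensus site over 6 libraries, a log2 fold change, mean log2 CPM, F score, p-value and adjusted p-value. It has no values per library, so no refit, library total or replicate check could be made, and its calls at adjusted p under 0.05 were used, as the design provided for such a table. Columns from further samples numbered 0.

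The following were computed in Python 3.11.15 (scipy 1.17.1, pandas 2.3.3; plots with matplotlib 3.10.9): overlaps of at least 1 bp; approximate standard errors as the absolute log2 fold change over the square root of F; 95% intervals whose degrees of freedom came from matching F to its p-value (median 87.6 where F was under 0.5); TSS positions from the peak centre and distance. The adjustment was tested on simulated data. The steps behind the intervals were run on the same data, but how often the intervals hold the true value was not tested. Named genes were those with a PLAGL1 peak, the 10 highest and 5 lowest H3K4me3 scores, the 5 highest and 5 lowest KLF4 levels, KLF4 sites at unadjusted p under 0.05, unmarked standard genes, Diamond-Blackfan genes and paralogs. Others (Rpl27, Rpl30, Rpl15, Rpl10a, X-linked genes, genes without KLF4) were named after their values were seen. Members and lists were chosen with earlier results of these data known. Some genes are counted but not reported by name or plotted here.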

Additional observations from a re-analysis of the deposited data

How the results depend on the processing

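Of 12 alternatives, 11 left the count within 1.5 times its value, with the changes from 6 to 4 and from 48 to 32 at that limit. The stricter overlap could not change the 4 sites at an unadjusted p under 0.05, which lay wholly on the peaks, nor add to the 0 calls. The 1000 bp limit for H3K4me3 and both limits for PLAGL1 could not change their counts either. The largest distances among members were 976 and 474 bp. These alternatives are therefore no check on the counts. A limit of 500 bp to the TSS in place of 3 kb took 43 in place of 67 genes with an H3K4me3 peak, the rest lying between 500 and 976 bp. A limit of 1000 bp kept 67. The upper 50% of scores over all H3K4me3 peaks, distal ones included, kept 64, a lower bar than the median over marked genes used above. For PLAGL1 the 6 genes were 6 at 1000 and at 500 bp and 4 in the upper 50% of scores. The 48 genes with a KLF4 site were 47 when at least 50% of the site had to overlap and 32 with sites in the upper 50% of mean log2 CPM. The 0 calls by edgeR in the authors' deposited table were 0 without the sex chromosome ends and ribosomal RNA copies (smallest adjusted p 0.66), over sites on H3K4me3 peaks alone (0.97) and with the stricter overlap (0.63), and the 4 sites at an unadjusted p under 0.05 were 4 with it. No paired analysis was possible because the KLF4 table has no values per library, and for the same reason leaving out a replicate, DESeq2 scaling and a count filter were not run.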

Other observations

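Some peaks annotated to ribosomal protein genes lay beyond the 3 kb limit and were not members. In an intron of another transcript, 15765 bp upstream of Rplp0, a PLAGL1 peak (score 39, chr5:115681608-115681915, mm39) overlapped a weak H3K4me3 peak (score 54, chr5:115681638-115682143), and another PLAGL1 peak (score 61) lay 24896 bp upstream. Rps24 was the nearest gene to 2 weak H3K4me3 peaks, with scores 61 and 45, at 238979 and 253134 bp. The pseudogene Rps4l, whose symbol lacks the suffix -ps, had an H3K4me3 peak with a score of 115 at 433 bp from its start, and the PLAGL1 peak named for Rps6-ps4 (score 66) lay 33079 bp away from it.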
